A study of Mus musculus with 8 samples.

Results

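The genes described here serve inhibition in the hippocampus. They are the GABA-synthesizing enzymes Gad1 and Gad2, the interneuron calcium-binding proteins Pvalb and Calb2, the inhibitory postsynaptic proteins Gphn, Nlgn2 and Shisa7, and the GABA-B receptor subunits Gabbr1 and Gabbr2. The 9 genes were taken by exact match of the gene symbol from a hippocampal RNA-Seq table of 46983 genes. All 9 were above the noise limit of 14 TPM (a transcript abundance, reads per length of exon scaled to the same total in each library) and are among the 9270 genes tested. Libraries S1 to S4 came from XBP1s-TG mice and S5 to S8 from Control mice, 4 of each, on a C57BL/6 background and 2 months old. XBP1s-TG mice carry TRE-XBP1s and Camk2a-tTA, so that the promoter of Camk2a drives an activator (tTA), which turns on the spliced form of Xbp1, a transcription factor of the unfolded protein response, in forebrain excitatory neurons. Doxycycline (Dox) in the drinking water held the transgene off, and hippocampi were taken a week after Dox was removed. The genotype of the controls is labelled only as Control, and the study used mice of both sexes without giving the sex of each library. The comparison asks which transcripts differ in the whole hippocampus once Xbp1s is expressed.

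Inhibitory interneurons make GABA from glutamate and release it onto excitatory neurons. GABA opens GABA-A receptors, which are chloride channels held at the synapse by a scaffold and by adhesion proteins, and acts more slowly through GABA-B receptors, which couple to G proteins and to potassium and calcium channels. Of the 9 genes, those for GABA synthesis and the calcium-binding proteins are known mainly from interneurons (Calb2 also from mossy cells of the mouse hilus), while the genes of the postsynaptic side and of the GABA-B receptor are also transcribed in excitatory neurons. In bulk tissue, fewer cells of a type and less RNA per cell cannot be told apart.

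Shisa7 and Gphn fell and Nlgn2 rose in XBP1s-TG hippocampus by more than the spread between libraries, and these 3 genes, all of the inhibitory postsynapse, are the members whose differences passed in every alternative analysis. Their promoter windows are shown because XBP1s is a transcription factor. The sequences are RefSeq's on GRCm38.p6, 250 bases before to 50 bases after the annotated start, printed in the sense of the gene, with CCACG in capitals wherever it occurs.
Shisa7, chr7:4844647-4844946, minus strand: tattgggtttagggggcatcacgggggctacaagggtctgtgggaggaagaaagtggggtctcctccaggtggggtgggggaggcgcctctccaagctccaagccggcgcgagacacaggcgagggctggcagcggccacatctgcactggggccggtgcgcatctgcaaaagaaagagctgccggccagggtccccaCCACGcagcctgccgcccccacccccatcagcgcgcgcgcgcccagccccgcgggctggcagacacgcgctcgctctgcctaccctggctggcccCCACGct
Gphn, chr12:78226405-78226704, plus strand: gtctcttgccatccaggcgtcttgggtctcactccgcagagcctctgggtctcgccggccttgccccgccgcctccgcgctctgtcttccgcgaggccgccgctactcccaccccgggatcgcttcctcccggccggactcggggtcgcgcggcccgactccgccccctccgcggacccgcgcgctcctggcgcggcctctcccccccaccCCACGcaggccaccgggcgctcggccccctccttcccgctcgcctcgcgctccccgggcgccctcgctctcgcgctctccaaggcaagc
Nlgn2, chr11:69837735-69838034, minus strand: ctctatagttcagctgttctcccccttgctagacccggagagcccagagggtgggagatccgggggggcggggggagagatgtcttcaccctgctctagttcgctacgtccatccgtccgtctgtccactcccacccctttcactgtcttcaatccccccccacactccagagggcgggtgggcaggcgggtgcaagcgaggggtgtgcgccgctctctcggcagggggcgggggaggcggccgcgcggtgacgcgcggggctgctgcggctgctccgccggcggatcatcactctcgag
The motifs searched on both strands were ACGTG, the core of sites bound by XBP1 and related factors, CCACG, the second part of the ER stress response element, and TGACGTGG, the unfolded protein response element, which itself contains ACGTG and the reverse complement of CCACG. The motif ACGTG was in 0 of the 9 windows available for 8 members, against 19.6% of all 32851 RefSeq windows. TGACGTGG was also in 0 of 9, against 0.676% of all windows. CCACG was in 4 of the 9 windows, 1 each of Shisa7, Gphn, Pvalb and Gabbr1, against 32.8% of all windows. Its first base lay 52 bases upstream and 44 bases downstream in Shisa7 and 39 bases upstream in Gphn. In Pvalb it lay 118 and 13 bases upstream, and in Gabbr1 127 and 79 bases upstream. Nlgn2, whose transcript rose, held none of the 3 motifs in its window, and neither did Gad1, Gad2 or Gabbr2. A match describes letters only and was not tested as a site.

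The libraries held 34874402 to 52135987 reads assigned to genes, and the members held 703 (Pvalb in S1) to 38869 (Gabbr1 in S5) reads in a library. Xbp1, which counts endogenous and transgene reads together, had a mean of 789 ± 227 TPM in XBP1s-TG against 70.2 ± 1.28 TPM in Control (SD, n = 4 each). Libraries S1 and S3 stand apart from the others. The summed level of 12 choroid plexus markers was 221 TPM in S1 and 346 TPM in S3, against 6009 and 10680 TPM in S2 and S4 and 4793 to 10440 TPM in Control. By limma 0 of the 10 of these markers tested passed, 4 were lower at an unadjusted p under 0.05, 5 were lower by voom and 0 by the unequal-variance test. The 12 hypothalamus and amygdala markers summed to 1132 TPM in S1 and to 677 to 848 TPM in the other libraries. By limma, microglia markers were lower in 8 of 8 tested (sums of 484 to 572 TPM in XBP1s-TG and 555 to 582 TPM in Control). Striatum markers were lower in 3 of 4 (82.4 to 125 and 125 to 166 TPM). Of 16 hippocampal excitatory neuron markers 3 were higher and 7 lower (5518 to 6161 and 6362 to 7200 TPM). Of all genes tested, 24.4% were higher and 29.4% lower by limma. Of the same 9270 genes, voom passed 2198 as higher and 2739 as lower, and the unequal-variance test 2024 and 2186. Voom passed 6 microglia and 3 striatum markers as lower, and the unequal-variance test 3 and 2. For the excitatory markers voom passed 2 as higher and 6 as lower, and the unequal-variance test 3 and 6. None of the markers in these lists was at 0 in every library. The part of neighbouring tissue and of these cell types in the results was not tested, and values without S1 and S3 are given below.

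In Control, Gabbr1 had the highest level per length of the 9 genes (312 TPM), followed by Nlgn2 (175 TPM), Gabbr2 (151 TPM) and Gad1 (133 TPM). Gabbr1 and Nlgn2 each lay above the next gene with no overlap between libraries. The ranges of Gabbr2 and Gad1 overlapped, although Gabbr2 was above Gad1 within each Control library. Shisa7, Pvalb, Gad2, Calb2 and Gphn followed between 85.6 and 61.8 TPM, and each overlapped its neighbour in that order. In XBP1s-TG the first 4 places were the same. Below them the order was Gad2 (97.3 TPM), Calb2 (86.0 TPM), Pvalb (69.1 TPM), Shisa7 (59.6 TPM) and Gphn (52.4 TPM), again with overlap between neighbours. Compared within a library, Gad2 was above Calb2 and Shisa7 above Gphn in all 4 XBP1s-TG libraries. Calb2 was above Pvalb, and Pvalb above Shisa7, in 3 of the 4. Shisa7 went from the fifth place to the eighth, and Gad2 and Calb2 moved above Pvalb. Gabbr1 varied least between libraries of a group, with a coefficient of variation of 2.02% in Control and 3.24% in XBP1s-TG, and Calb2 varied most in Control, with 23.2% there and 7.56% in XBP1s-TG. In XBP1s-TG Pvalb varied most, with 12.6%.

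**Figure D1:**
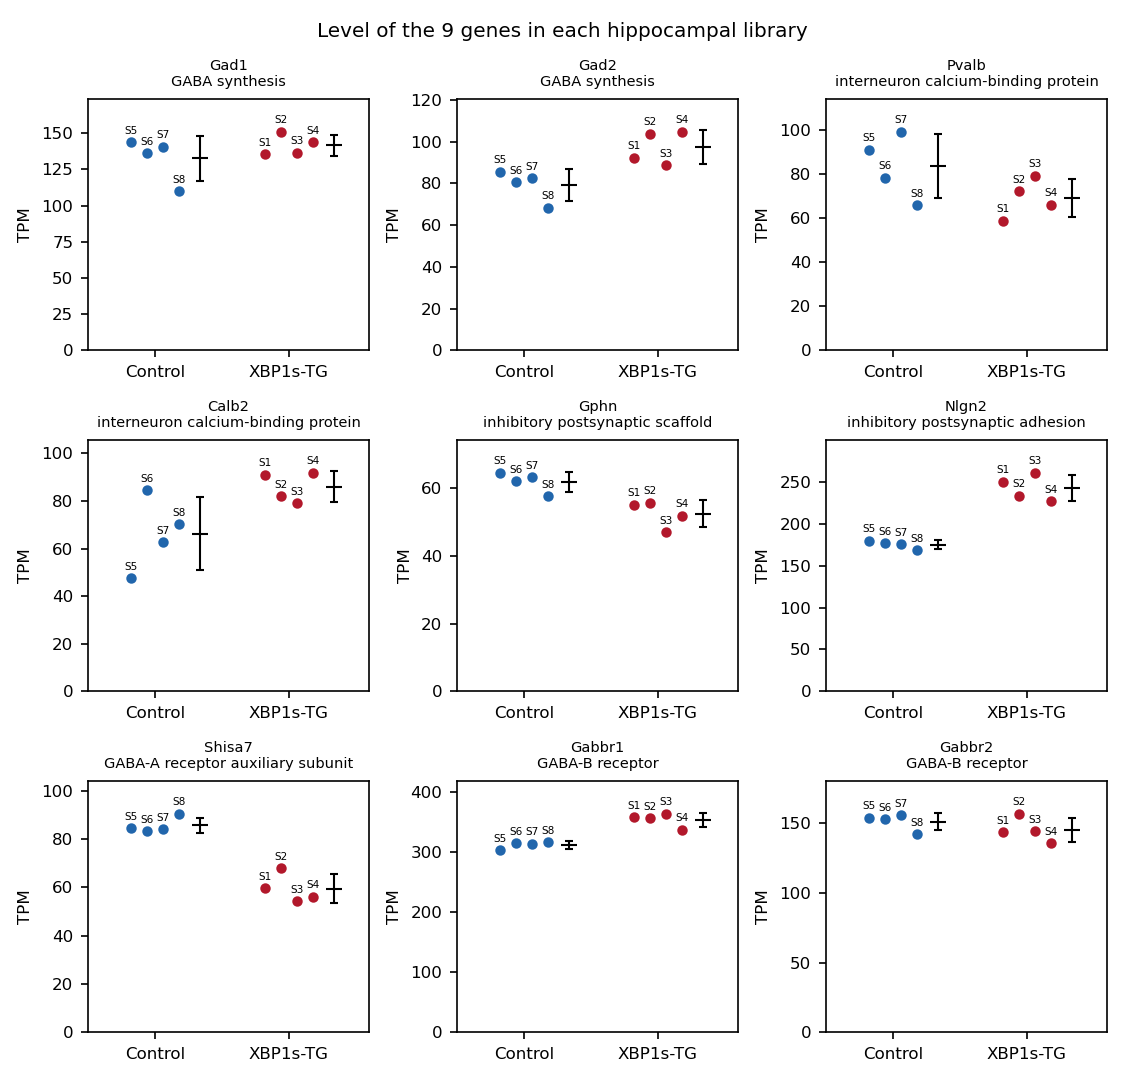
TPM of the 9 genes (vertical axes, from 0) in each library, 4 XBP1s-TG and 4 Control, with the mean and SD of each group. Nlgn2, Gabbr1 and Gad2 were higher and Shisa7 and Gphn lower in every XBP1s-TG library than in every Control library on this scale, while Gad1, Pvalb, Calb2 and Gabbr2 overlapped.

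After quantile normalization and a limma fit over 9270 genes, 2 of the 9 members were higher and 4 lower at an adjusted p under 0.05. The background is high, since 24.4% of all genes tested were higher and 29.4% lower by the same rule. At a fold change of at least 1.5 as well, 1 member (Shisa7) was downregulated, against 2.75% of all genes, and 0 were upregulated, against 5.61%. The count of 0 was also found at an unadjusted p under 0.05, with voom on recovered reads and with an unequal-variance test per gene. The median log2 fold change was -0.01 over the members and -0.04 over all genes tested. Quantile normalization lowered the median of all genes by 0.10 on the log2 scale relative to TPM alone, a shift larger than the fitted differences of Gad1 and Gabbr1. In TPM, 3 members were higher (34.1% of all genes) and 2 lower (13.2%) with no overlap between the groups, and on the normalized scale 2 were higher (23.3%) and 2 lower (26.3%).

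**Figure D2:**
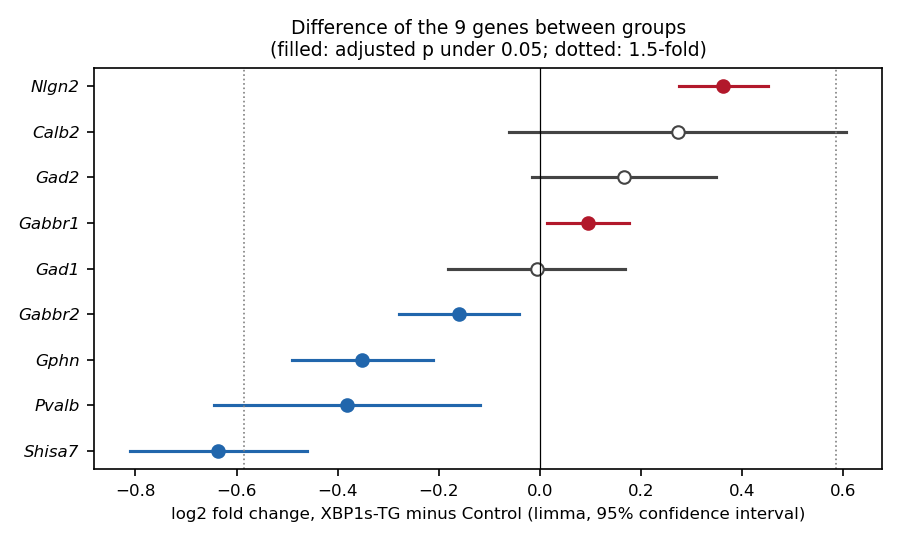
Log2 fold change of XBP1s-TG minus Control on the normalized log2(TPM + 2) scale (horizontal axis) with its 95% confidence interval, for each of the 9 genes. Filled points have an adjusted p under 0.05 and dotted lines mark 1.5-fold. Shisa7 lies lowest at -0.64 and Nlgn2 highest at 0.36, and the intervals of Gad1, Gad2 and Calb2 cross 0.

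Gad1 (ENSMUSG00000070880, chromosome 2, 70553072 to 70602014) encodes the glutamate decarboxylase that makes most of the GABA of the brain. It was at 135.4, 151.1, 136.7 and 144.0 TPM in S1 to S4 and at 144.1, 136.5, 140.8 and 109.9 TPM in S5 to S8. The groups overlapped, and the lowest value was that of the Control library S8. The log2 fold change was -0.01 (SE 0.0781, adjusted p = 0.948, limma), and the 95% interval of the fold ran from 0.881 to 1.12. Its sign depended on the scaling and was positive with TPM alone (0.10) and with voom (0.03), in neither case past the threshold. The antisense gene Gad1os, which has no exon in common with Gad1, reached at most 0.611 TPM, and the pseudogene Gad1-ps held 2 to 9 reads a library.

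Gad2 (ENSMUSG00000026787, chromosome 2, 22622205 to 22693874) encodes the second glutamate decarboxylase, enriched at nerve terminals. It was at 92.2, 103.7, 88.7 and 104.7 TPM in S1 to S4 and at 85.6, 80.4, 82.4 and 68.4 TPM in S5 to S8. Every XBP1s-TG library was above every Control library in TPM, but the groups overlapped after quantile normalization. The log2 fold change was 0.17 (SE 0.0809, adjusted p = 0.109, limma), with a 95% interval of the fold from 0.989 to 1.27. Gad2 did not pass, although it did with TPM alone (0.29, adjusted p = 0.0117, limma), with voom (0.22, adjusted p = 0.0314), without S3 (0.22, adjusted p = 0.0382) and without S1 and S3 (0.29, adjusted p = 0.0162).

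Within a library, the ratio of Gad1 to Gad2 TPM does not depend on the scaling of the library. It was 1.47, 1.46, 1.54 and 1.38 in S1 to S4 and 1.68, 1.70, 1.71 and 1.61 in S5 to S8. Every XBP1s-TG library was below every Control library. The mean was 1.46 ± 0.0678 (SD, n = 4) in XBP1s-TG and 1.67 ± 0.0463 (SD, n = 4) in Control, a log2 difference of -0.20. The exact two-sided permutation test gave p = 0.0286, the smallest that 4 libraries against 4 allow, and 0.0571 after adjustment over the 4 ratios examined, which is not under 0.05.

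Pvalb (ENSMUSG00000005716, chromosome 15, 78191114 to 78206400) encodes parvalbumin, the calcium-binding protein of fast-spiking basket and axo-axonic cells. It was at 58.8, 72.3, 79.2 and 66.0 TPM in S1 to S4 and at 91.0, 78.2, 99.1 and 65.8 TPM in S5 to S8. The groups overlapped, since the Control library S8 was as low as S4 and the XBP1s-TG library S3 lay above S6. Pvalb fell by 0.38 on the normalized log2 scale (SE 0.117, adjusted p = 0.0208, limma). In TPM the mean of Pvalb was 83.5 ± 14.7 in Control and 69.1 ± 8.71 in XBP1s-TG (SD, n = 4 each), a ratio of 0.827. The call was lost in 7 of 19 alternatives, among them TPM alone (-0.26, adjusted p = 0.115), the fits without S1 (adjusted p = 0.0561), without S5 (adjusted p = 0.0577) and without S7 (adjusted p = 0.0547), and the fit without S1 and S3 (-0.35, adjusted p = 0.0736). Parvalbumin cells are also dense in neocortex and in the reticular nucleus of the thalamus. Of 8 neocortex markers tested 6 passed as lower by limma, against 29.4% of all genes tested. By the unequal-variance test 3 passed as lower, against 2186 of all 9270 genes. The sum of the list of 10 was 293 to 337 TPM in XBP1s-TG and 321 to 434 TPM in Control. The highest neocortex and thalamus sums (434 and 101 TPM) were in S7, the library with the most Pvalb, and the lowest Control sums (321 and 45.8 TPM) were in S8, the Control library with the least. The thalamus sum was 65.9 to 71.8 TPM in XBP1s-TG and 45.8 to 101 TPM in Control. Within XBP1s-TG, S3 had the most Pvalb, the highest neocortex sum (337 TPM) and the lowest thalamus sum (65.9 TPM). S1 had the least Pvalb, with neocortex and thalamus sums of 326 and 71.8 TPM. The part of these tissues in the Pvalb difference was not tested.

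Calb2 (ENSMUSG00000003657, chromosome 8, 110142539 to 110168206) encodes calretinin, the calcium-binding protein of interneurons that contact other interneurons and, in the mouse, of hilar mossy cells. It was at 91.1, 82.0, 79.0 and 91.9 TPM in S1 to S4 and at 47.6, 84.6, 62.7 and 70.4 TPM in S5 to S8. Only the Control library S6 reached the XBP1s-TG range, and Control libraries were spread widely. The log2 fold change was 0.27 (SE 0.148, adjusted p = 0.148, limma), with a 95% interval of the fold from 0.958 to 1.52, so Calb2 did not pass. It passed with TPM alone (0.39, adjusted p = 0.0433) and without S6 (0.39, adjusted p = 0.0395).

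Relative to Gad1 in the same library, Pvalb was at 0.435, 0.478, 0.580 and 0.458 in S1 to S4 and at 0.631, 0.573, 0.704 and 0.598 in S5 to S8. S3 was the XBP1s-TG library that reached into the Control range. The log2 difference was -0.37, with p = 0.0571 in the exact two-sided permutation test (0.0762 adjusted over 4 ratios). The ratio of Calb2 to Gad1 averaged 0.608 ± 0.0588 (SD, n = 4) in XBP1s-TG and 0.509 ± 0.148 (SD, n = 4) in Control, with p = 0.314 in the same exact permutation test. Neither ratio differed beyond the spread between libraries by this test.

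**Figure D3:**
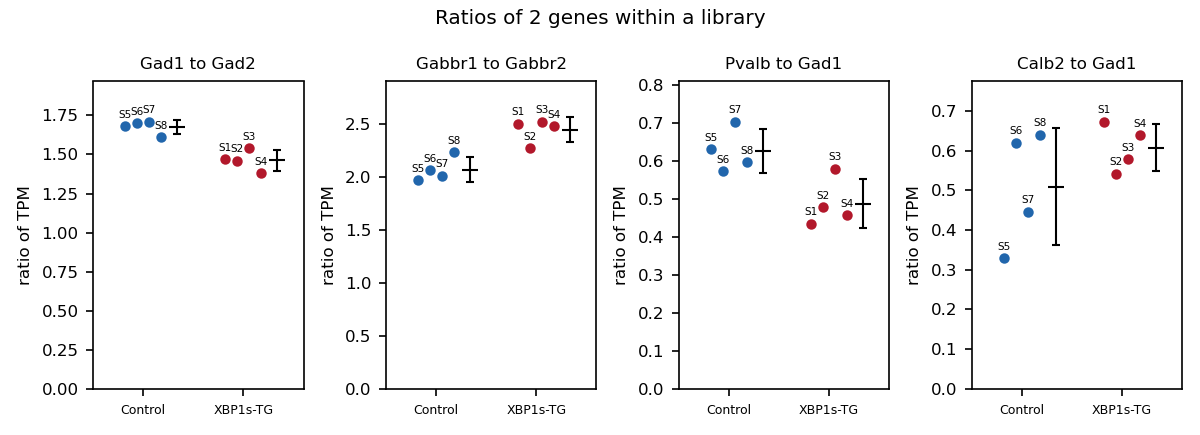
Ratios of TPM within each library (vertical axes) for Gad1 to Gad2, Gabbr1 to Gabbr2, Pvalb to Gad1 and Calb2 to Gad1, 4 XBP1s-TG and 4 Control libraries each, with the mean and SD of each group. The ratio of Gad1 to Gad2 was 1.38 to 1.54 in XBP1s-TG and 1.61 to 1.71 in Control, and that of Gabbr1 to Gabbr2 was 2.27 to 2.52 and 1.97 to 2.23, while the other ratios overlapped.

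Shisa7 (ENSMUSG00000053550, chromosome 7, 4825552 to 4844696), a transmembrane protein that associates with GABA-A receptors and is also described as an auxiliary protein of AMPA glutamate receptors, showed the largest difference of the 9 genes. It was at 59.8, 67.9, 54.3 and 56.2 TPM in S1 to S4 and at 84.6, 83.4, 84.0 and 90.5 TPM in S5 to S8. All XBP1s-TG libraries were below all Control libraries, with a wide gap between the groups. Shisa7 fell by 0.64 on the log2 scale (SE 0.0777, adjusted p = 1.53e-04, limma), and the 95% interval of the fold ran from 0.570 to 0.726. It passed in all 19 alternatives and reached 1.5-fold in 17 of them, the exceptions being TPM alone (-0.51) and the fit without S1 and S3 (-0.56). Over the 8 libraries, the tested genes whose mean-centred normalized values were nearest to those of Shisa7 were Psd, Cdo1 and Arhgap12, with root mean square differences of 0.037, 0.0389 and 0.0444 on the log2 scale.

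Gphn (ENSMUSG00000047454, chromosome 12, 78226655 to 78684767) encodes gephyrin, the scaffold that anchors GABA-A and glycine receptors, which also serves molybdenum cofactor synthesis. It was at 55.1, 55.7, 46.9 and 51.8 TPM in S1 to S4 and at 64.5, 62.1, 63.1 and 57.5 TPM in S5 to S8. The groups did not overlap, and S3 was lowest. Gphn fell by 0.35 on the log2 scale (SE 0.0622, adjusted p = 0.00125, limma), which is a fold of 0.784 with a 95% interval from 0.712 to 0.864. It passed in all 19 alternatives, with values from -0.39 to -0.23, among them -0.29 without S1 and S3.

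Nlgn2 (ENSMUSG00000051790, chromosome 11, 69823122 to 69837784) encodes neuroligin 2, the postsynaptic adhesion protein of inhibitory synapses. It was at 249.9, 233.2, 260.7 and 227.1 TPM in S1 to S4 and at 179.6, 176.9, 175.5 and 168.0 TPM in S5 to S8. Control libraries lay close together and every XBP1s-TG library was above them. Nlgn2 rose by 0.36 on the log2 scale (SE 0.0390, adjusted p = 7.51e-05, limma), a fold of 1.29 with a 95% interval from 1.21 to 1.37. It passed in all 19 alternatives, with values from 0.32 to 0.47, the lowest of them without S1 and S3. The scaffold and receptor-associated members differed in direction from the adhesion member of the same synapse.

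The 4 XBP1s-TG libraries are too few for a correlation, but the order of these genes in them can be set beside Xbp1. S3, with the most Xbp1 (1094 TPM), had the lowest Shisa7 and Gphn and the highest Nlgn2 of the 4. S2, with the least Xbp1 (549 TPM), had the highest Shisa7 and Gphn. S1 and S4 did not keep this order. S1 had more Xbp1 than S4 (785.6 against 729.1 TPM), but also more Shisa7 (59.8 against 56.2 TPM) and Gphn (55.1 against 51.8 TPM). Nlgn2 was lowest in S4 and not in S2. Since S3 and S1 are also the libraries low in choroid plexus markers, the level of Xbp1 and the tissue taken cannot be told apart here.

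Gabbr1 (ENSMUSG00000024462, chromosome 17, 37045966 to 37075067) encodes the subunit of the GABA-B receptor that binds GABA. It was at 358.2, 356.0, 363.8 and 337.4 TPM in S1 to S4 and at 302.6, 314.4, 313.7 and 316.7 TPM in S5 to S8. The groups did not overlap and the spread in each was small. On the normalized scale Gabbr1 rose by 0.09 (SE 0.0360, adjusted p = 0.0495, limma). The call was at the threshold and was lost in 11 of 19 alternatives, among them median centring (0.06, adjusted p = 0.332) and the fit without S1 and S3 (0.09, adjusted p = 0.196). It was clearer with TPM alone (0.18, adjusted p = 0.0041) and with voom (0.24, adjusted p = 6e-04). Leaving out single libraries ended the call except without S4, and gave adjusted p values from 0.0331 to 0.122.

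Gabbr2 (ENSMUSG00000039809, chromosome 4, 46662305 to 46991873) encodes the partner subunit that couples the receptor to G proteins. It was at 143.4, 156.8, 144.4 and 135.8 TPM in S1 to S4 and at 153.9, 152.7, 155.8 and 142.2 TPM in S5 to S8. The groups overlapped, and S2 was the highest library of all. Gabbr2 fell by 0.16 on the normalized log2 scale (SE 0.0528, adjusted p = 0.0283, limma). The call was lost in 10 of 19 alternatives, among them TPM alone (-0.06, adjusted p = 0.378), the fit without S1 and S3 (-0.12, adjusted p = 0.199) and 6 of the 8 fits that leave out 1 library, namely S1, S3, S4, S5, S6 or S7.

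The ratio of Gabbr1 to Gabbr2 was 2.50, 2.27, 2.52 and 2.48 in S1 to S4 and 1.97, 2.06, 2.01 and 2.23 in S5 to S8. Every XBP1s-TG library was above every Control library, although S2 and S8 were near each other. The mean was 2.44 ± 0.116 (SD, n = 4) in XBP1s-TG and 2.07 ± 0.114 (SD, n = 4) in Control, a log2 difference of 0.24. The exact two-sided permutation test gave p = 0.0286, and 0.0571 after adjustment over 4 ratios. Without S1, S3, S4, S5, S6 or S7 the unadjusted p of this exact test was 0.0571.

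The other genes of GABA signalling were counted in lists written with earlier results of these data known. In 5 lists together, members left out, 42 of 59 genes were tested, of which 8 were higher and 18 lower, with a median log2 fold change of -0.14 against -0.04 over all genes tested. These shares can be set beside the background of 24.4% and 29.4%. Of the 42 genes, 2 (Gabra4 and Gabrd) were downregulated by at least 1.5-fold and 0 upregulated, against 2.75% and 5.61% of all genes tested. Gabrd was tested only through its level in Control. The count of 0 upregulated was also found at an unadjusted p under 0.05, by voom and by the unequal-variance test. With TPM alone, the genes of these lists and of the interneuron markers that passed as lower went from 25 to 12. Those of all genes went from 2729 to 1343.

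**Figure D4:**
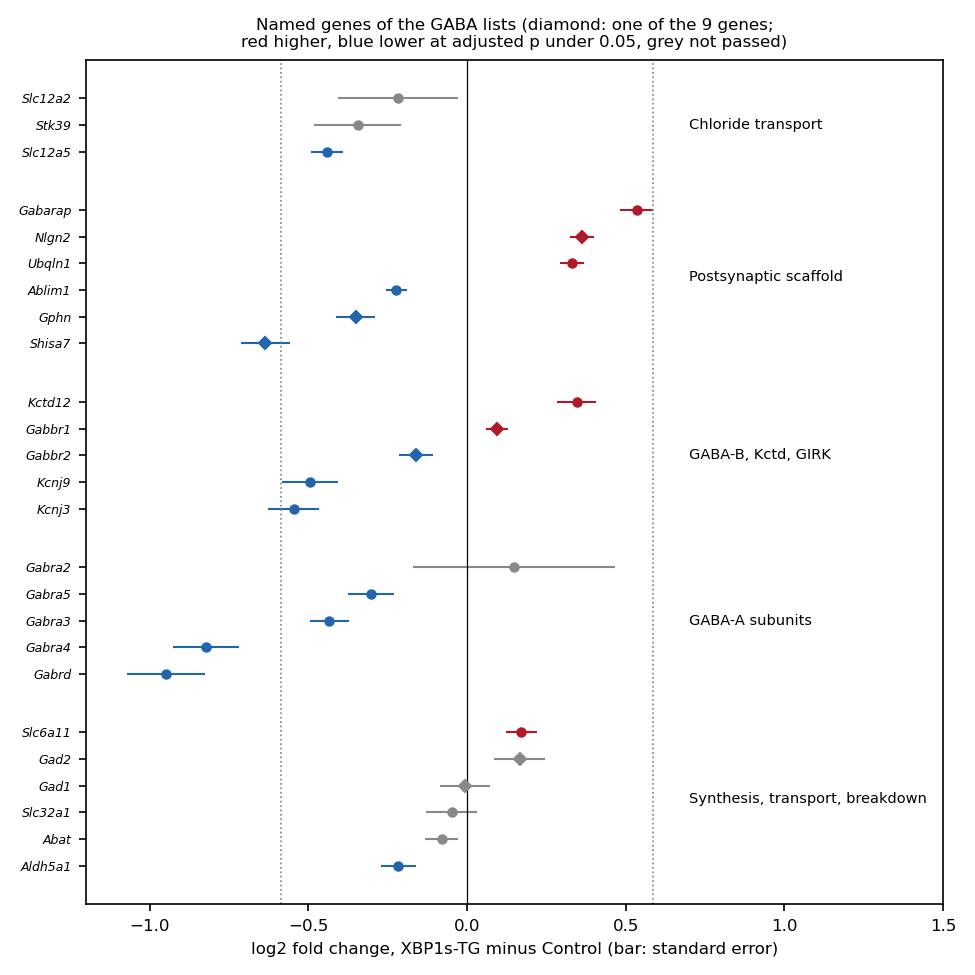
Log2 fold change of XBP1s-TG minus Control on the normalized scale (horizontal axis) for the genes of the 5 GABA lists that are named in the text, with bars of 1 standard error and diamonds for those of the 9 genes that are in these lists. Shisa7 at -0.64, Gabra4 at -0.82 and Gabrd at -0.95 are past 1.5-fold, on the lower side, and Gabrd was above the noise limit only in Control.

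Among genes of GABA synthesis, packaging, uptake and breakdown, Gad1 and Gad2 stood with 5 other genes tested. Slc6a11, the GABA transporter of astrocytes, rose by 0.17 (adjusted p = 0.0157, limma) and Aldh5a1, which breaks down GABA, fell by 0.22 (adjusted p = 0.00949, limma) on the log2 scale. Aldh5a1 lost the call with TPM alone (-0.10, adjusted p = 0.2, limma) and without S1 and S3 (-0.16, adjusted p = 0.0655, limma), and Slc6a11 without S1 and S3 (0.12, adjusted p = 0.129, limma). Slc32a1, the vesicular transporter that interneurons share, was at -0.05 (SE 0.0805, adjusted p = 0.638, limma), with a sign that turned positive with TPM alone (0.07). Abat, the GABA transaminase, was at -0.08 (adjusted p = 0.227, limma), or at 0.04 with TPM alone.

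Of the interneuron markers, which include Gad1, Gad2, Pvalb and Calb2, 21 of the 32 found in the table were tested, and 1 was higher and 4 lower, both smaller shares than the background of 24.4% and 29.4%. The unequal-variance test passed 0 as higher and 1 as lower, against 2024 and 2186 of all 9270 genes. Besides Pvalb the lower ones were Kcnc2 (-0.36, adjusted p = 0.00127), a potassium channel of fast-spiking cells, Satb1 (-0.37, adjusted p = 0.0172), a transcription factor of interneurons from the medial ganglionic eminence, and Nxph1 (-0.19, adjusted p = 0.0304), a neurexin ligand, all by limma. With TPM alone Pvalb, Satb1 and Nxph1 no longer passed. Within Control, Satb1, like Pvalb, was highest in S7 (36.4 TPM) and lowest in S8 (22.1 TPM). These libraries also had the highest and lowest neocortex sums of Control (434 and 321 TPM). Within XBP1s-TG, Satb1 was highest in S2 (26.2 TPM), but the neocortex sum was highest in S3 (337 TPM). The part of neocortex in the Satb1 difference was not tested. Over all alternatives Nxph1 lost the call in 10 of 18, Pvalb in 7 of 19 and Satb1 in 4 of 19, and Kcnc2 passed in all 19. Npy, the neuropeptide of neurogliaform and other interneurons, rose by 0.21 (adjusted p = 0.0428, limma), and lost the call in 11 of 19 alternatives. Sst, the neuropeptide of dendrite-targeting interneurons, was at 877 ± 70.7 TPM in XBP1s-TG and 802 ± 39.6 TPM in Control (SD, n = 4 each, adjusted p = 0.119, limma), and Vip at 33.0 ± 3.90 and 36.5 ± 7.48 TPM (SD, n = 4 each, adjusted p = 0.105, limma). Neither passed. The summed level of the markers was 2010 to 2212 TPM in XBP1s-TG and 1758 to 2012 TPM in Control.

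Next to Gphn, Nlgn2 and Shisa7, 17 other genes of the inhibitory postsynapse were tested. The list of 20 held 4 higher and 9 lower genes by limma, beside 24.4% and 29.4% of all genes tested. The unequal-variance test passed 4 as higher and 6 as lower, against 2024 and 2186 of all 9270 genes. Gabarap, which binds GABA-A receptors and takes part in autophagy, rose by 0.54 (adjusted p = 4.33e-05, limma), and Ubqln1, which binds GABA-A receptor subunits and ubiquitinated proteins, rose by 0.33 (adjusted p = 1.18e-04, limma). Both lay above Control in all XBP1s-TG libraries, as Nlgn2 did. Ablim1, an actin-binding protein, fell by 0.22 (adjusted p = 5.41e-04, limma), or by 0.11 with TPM alone, where it did not pass (adjusted p = 0.0907, limma).

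The GABA-A receptor subunits, the channels that Gphn anchors and Shisa7 associates with, were tested for 10 of 19 genes. By limma 2 were higher and 5 lower, beside 24.4% and 29.4% of all genes tested. The unequal-variance test passed 1 as higher and 4 as lower, against 2024 and 2186 of all 9270 genes. Gabra4 was at 31.0 ± 5.06 TPM in XBP1s-TG and 51.3 ± 3.27 TPM in Control (SD, n = 4 each). On the normalized log2 scale Gabra4 fell by 0.82 (adjusted p = 1.90e-04, limma). Gabrd, of the extrasynaptic receptors of granule cells, was at 12.9 ± 0.470 and 25.4 ± 6.03 TPM (SD, n = 4 each), with a normalized log2 difference of -0.95. Its XBP1s-TG libraries were all under the noise limit of 14 TPM, so it was tested only through the Control group, and a gene that entered in that way had to differ. Its adjusted p without the filter was 0.00161 (limma). Gabra3 (-0.43, adjusted p = 3.33e-04, limma) and Gabra5 (-0.30, adjusted p = 0.00643, limma) also passed as lower, in all 19 alternatives each. Exons of Gabra4 and Gabrb1 overlap on opposite strands in GENCODE. Libraries were made with a stranded kit but the strand setting of the counting is not given in the sources used here, so the Gabra4 value is uncertain to that extent.

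**Figure D5:**
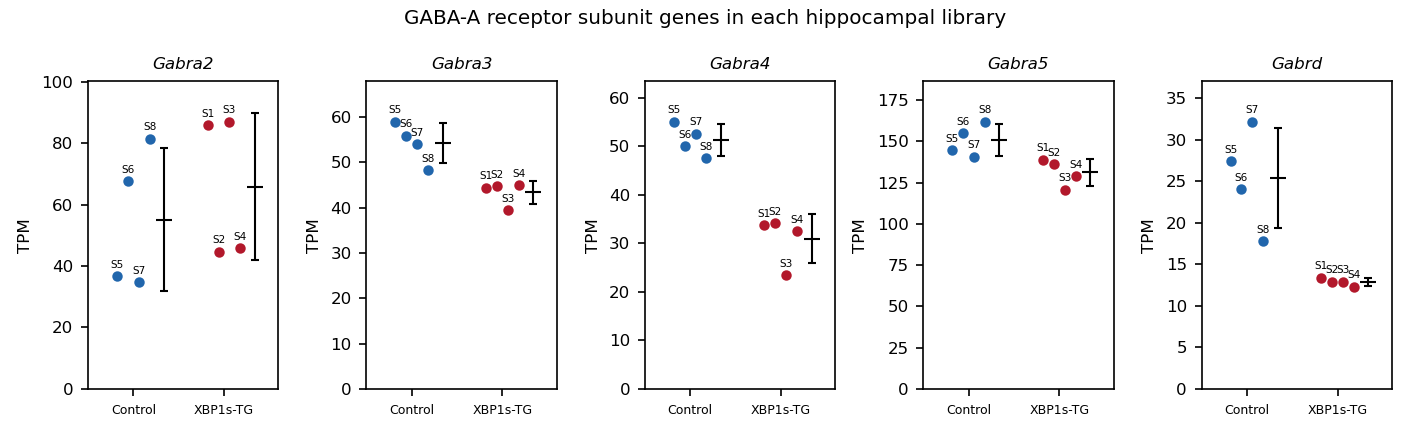
TPM (vertical axes) of the GABA-A receptor subunit genes named in the text in each of the 4 XBP1s-TG and 4 Control libraries, with the mean and SD of each group. Gabra3, Gabra4, Gabra5 and Gabrd were lower in every XBP1s-TG library than in every Control library, whereas Gabra2 split the libraries of both groups.

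Around Gabbr1 and Gabbr2, all 7 tested genes of the GABA-B list passed by limma, 3 as higher and 4 as lower. The shares over all genes tested were 24.4% and 29.4%. The list includes Gabbr1 and Gabbr2. By the unequal-variance test 2 of its genes passed as higher and 3 as lower, against 2024 and 2186 of all 9270 genes. Kctd12, an auxiliary protein of the receptor, rose by 0.35 (adjusted p = 0.00119, limma). Kcnj3 and Kcnj9, potassium channel subunits that the receptor opens, fell by 0.55 (adjusted p = 4.81e-04, limma) and by 0.49 (adjusted p = 0.00129, limma). These differences were larger than those of the receptor subunits themselves and passed in all 19 alternatives each. Of 5 genes of neuronal chloride transport 0 were higher by limma, also at an unadjusted p under 0.05, by voom and by the unequal-variance test, and 2 were lower. Slc12a5, the potassium chloride cotransporter that keeps GABA inhibitory in mature neurons, fell by 0.44 (adjusted p = 9.86e-05, limma). Slc12a2, the importer of chloride, was at -0.22 (adjusted p = 0.354, limma). Stk39, a kinase that acts on these transporters, was at -0.35 (adjusted p = 0.0593, limma). Over the 19 alternatives Stk39 ran from -0.47 without S4 to -0.10 without S1 and S3, and passed in 4. Slc12a2 is also strongly expressed by choroid plexus, and the 2 lowest XBP1s-TG values (45.3 and 42.8 TPM) were those of S1 and S3. Without these libraries Slc12a2 was at 0.089 (adjusted p = 0.71, limma).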

How the data were processed

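Hippocampal RNA of 4 XBP1s-TG and 4 Control mice was sequenced after preparation with a stranded mRNA kit. According to the submitters' processing notes and the study's methods, reads were checked with FastQC, trimmed with Trimmomatic, mapped to GRCm38 and counted per gene in CLCbio Genomics Workbench, and the authors deposited TPM values of 46983 genes, which sum to 1000000 in each library. The deposited mean columns are the authors' means, and the deposited fold change and p-value columns hold the authors' own comparison. Neither was used. The groups of S1 to S8 are those given with the table, and 0 columns of single libraries were left out.

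Values of log2(TPM + 2) of genes above 0 TPM in any library were quantile normalized over the 8 libraries, and genes with a library above 4 (14 TPM) were fitted with limma 3.58.1 (lmFit, eBayes with trend) in R 4.3.3, with Benjamini-Hochberg adjustment over 9270 genes. Fold changes are on the log2(TPM + 2) scale, which understates changes of low genes. The study used an unequal-variance test per gene, run here as an alternative because of 4 libraries a group. A gene passed at an adjusted p under 0.05 and was called down- or upregulated if it also changed at least 1.5-fold. Ratios were tested with the exact two-sided permutation test, whose smallest p for 4 against 4 is 0.0286. Read numbers came out whole, within 0.001 reads, for all 29237 genes above 0 TPM, and gave the depths and the voom alternative. The study describes the samples of a group as independent and all its measurements as taken from biological replicates.

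The 9 genes and the gene lists were chosen with earlier results of these data known, so no p-value was adjusted over a list and no set test was run. The other genes named are the differentially expressed genes of the 5 pathway lists, 3 genes per list, those of smallest adjusted p, further GABA genes taken whatever their values, Xbp1, and the 3 genes most like each differentially expressed member. A few genes that the rule takes are not reported here. Alternatives were another pseudocount (1 or 0.1), the filter dropped or set to 5, TPM without quantile normalization (TPM alone), median centring, low values set to 4, eBayes with no trend, the test with unequal variances, voom, the omission of S1 and S3, and the omission of each library. The fit was also run on simulated data with independent noise. Those data hold none of the differences in tissue between libraries, and no result here rests on them. Promoter windows were read from RefSeq tables (GRCm38.p6) and matched for 8 of 9 members. Positions and overlaps are from GENCODE on GRCm38. Tables were handled with Python 3.11.15 and pandas 2.3.3.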

Additional observations from a re-analysis of the deposited data

Results flagged for a closer look

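In groups of 4 libraries, the lowest or highest value was compared with the nearest of the others by Dixon's ratio, for the 34 genes named, which made 68 groups. Chance flags about 1 in 20 groups, and 4 of 68 were found. None of the 9 genes was among them. In XBP1s-TG, library S3 was low for Gabra4 (23.5 TPM) and for Gabra3 (39.5 TPM), and library S4 was low for Kcnj9 (53.1 TPM). In Control, library S8 was low for Slc12a2 (40.1 TPM).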

How the results depend on the processing

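Of 171 values of the 9 genes under 19 alternatives each, 129 kept their direction and their side of the threshold, 28 lost the threshold, 6 passed it newly and 8 changed sign, all 8 of these in Gad1. Gphn, Nlgn2 and Shisa7 kept theirs throughout. The cause of the changes below was not tested, apart from fewer libraries in the fits that leave some out.

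With TPM alone, the genes lower at an adjusted p under 0.05 went from 2729 to 1343 and those downregulated from 255 to 150, while those higher went from 2260 to 3167 and those upregulated from 520 to 709. With TPM alone the members higher went from 2 to 4, lower from 4 to 2 and downregulated from 1 to 0, and the lower genes of the pathway and interneuron lists from 25 to 12. Without S1 and S3 there were 1700 lower and 152 downregulated genes, 2 lower and 0 downregulated members and 13 lower genes of the lists. The higher genes of the lists went from 11 to 7 there, and those of all genes from 2260 to 1563. Without the filter there were 1 higher and 2 lower members, beside 2763 higher and 2694 lower genes of all those above 0 TPM. Median centring gave 1 higher member, beside 2053 higher and 3017 lower genes in all. With no trend there was 1 higher member, beside 2272 higher and 2715 lower genes in all. By the unequal-variance test 2 members and 16 genes of the lists were lower, beside 2024 higher and 2186 lower genes in all. Leaving out 1 library at a time gave 1 to 2 higher and 2 to 4 lower members, 1 downregulated member, 8 to 9 higher, 20 to 27 lower and 3 to 5 downregulated genes of the lists (main 3), 2004 to 2286 higher, 2288 to 2706 lower, 455 to 594 upregulated and 191 to 333 downregulated genes in all.

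Gad1 turned positive with TPM alone (0.10), voom (0.033) and without S1 and S3 (0.079), and ran from -0.076 to 0.033 when 1 library was left out. Abat (0.038) and Slc32a1 (0.068) turned positive with TPM alone. Without S1 and S3, Slc32a1 (0.075) and Slc12a2 (0.089) turned positive and Gabra2 negative (-0.28). With 1 library left out, Slc32a1 ran from -0.092 to 0.00087 and Gabra2 from -0.042 to 0.38.

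Without S1 and S3, where the smallest exact p is 0.0667, the ratio of Gad1 to Gad2 was at -0.24 and that of Gabbr1 to Gabbr2 at 0.20 on the log2 scale, both with that p. With 1 library left out, the log2 difference ran from -0.22 to -0.17 for Gad1 to Gad2, from 0.22 to 0.28 for Gabbr1 to Gabbr2 (exact permutation p up to 0.0571), from -0.45 to -0.31 for Pvalb to Gad1 (p from 0.0286, without S3) and from 0.11 to 0.43 for Calb2 to Gad1. No paired analysis was possible because the columns S1 to S8 carry none of the replicate numbers in the labels. The depth behind the members was 703 to 38869 reads a library.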

Other observations

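Gabra2, the GABA-A receptor subunit gene alpha 2, fell into separate levels that did not follow the groups. It was at 85.9 and 87.0 TPM in the XBP1s-TG libraries S1 and S3 and at 67.7 and 81.4 TPM in the Control libraries S6 and S8. In the other libraries it was at 44.7 (S2) and 45.8 TPM (S4) in XBP1s-TG and at 36.7 (S5) and 34.7 TPM (S7) in Control. The log2 fold change between the groups was 0.15 (SE 0.320, adjusted p = 0.715, limma), and none of the 9 genes split the libraries in this way.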
